A study of Prunus dulcis and Malus domestica and Olea europaea with 8 samples.

Results

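miR395, miR399, miR827 and miR2111 are plant miRNA families tied to sulfate and phosphate supply, and their reads were described across small RNA libraries of 8 plant-based foods. Members were chosen by name: every gene of the deposited raw count table that bears one of these family names was taken, which gave 40 of the 209 miRNA genes annotated in peach. They comprised 15 genes of miR395, 20 of miR399, 4 of miR2111 and the single gene MIR827. The foods were almond (Prunus dulcis), apple (Malus domestica), olive (Olea europaea), orange (Citrus sinensis), pear (Pyrus communis), spinach (Spinacia oleracea), tomato (Solanum lycopersicum) and walnut (Juglans regia), and the edible portion of each was sequenced as 1 library. The labels name no treatment, and no source at hand describes the nutrient supply of the plants. The labels give an input of 0.5 g for almond and walnut and of 0.1 g for the other foods, while the methods text names a smaller mass for walnut and does not list almond. Reads of every food were aligned to the peach genome (Prunus persica, NCBIv2). A count is therefore a read that matched a peach miRNA gene, and a miRNA that differed more from the peach sequence was not counted.

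In plants, miR395 accumulates when sulfate is scarce and guides the cleavage of mRNAs of ATP sulfurylases, which start sulfate assimilation, and of a low-affinity sulfate transporter. miR399 accumulates when phosphate is scarce, travels in the phloem and represses PHO2, a ubiquitin-conjugating enzyme that restrains phosphate uptake. miR827 also rises under phosphate shortage, and its targets are the ubiquitin ligase NLA in Arabidopsis and SPX-domain phosphate transporters of the vacuole in many other plants. miR2111 responds to phosphate shortage in Arabidopsis and targets mRNAs of Kelch-repeat F-box proteins, among them TML, which restrains nodulation in Lotus.

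Counts on all 209 genes summed to 212021 in apple, the deepest library, and to 39249 in walnut, the shallowest (median 67321). The highest gene of a library held between 13.3% of its counts (almond) and 45.7% (pear). The factor by which the authors divided the counts of a library ran from 1.05 in almond to 241.0 in apple. As each food was represented by 1 library, differences between foods carry no replicate error, and no test between single foods was run. Intervals are exact 95% intervals (Poisson for a count, Clopper-Pearson for a share, conditional binomial for a ratio) and cover counting error only. For a count of 0 the limit given is that of 3 counts, which is lower than the upper end of the exact interval. Reads were not marked with molecular identifiers, so PCR copies count as separate reads. Both arms of a hairpin are summed in a gene's count, and no source at hand says how reads that fit several near-identical copies were placed, so the split among copies of a family is uncertain.

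Of the 40 member genes, 26 (65.0%) had at least 3 counts in at least 1 food, against 72.2% of all 209 annotated genes. By family, these were 12 of the 15 miR395 genes, 9 of the 20 miR399 genes, all 4 miR2111 genes and MIR827. A further 3 genes had 1 or 2 counts at most, and 11 had none in any food, of which 10 were miR399 genes and the other was MIR395k. The median count summed over the 8 foods was 8.5 for the members and 26 for all genes. Most members were thus counted at low depth: of the 320 combinations of a member and a food, 86 held a count, 56 held at least 3 and 26 held at least 10.

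In each single food the share of members with at least 3 counts was below that of all genes. Pear and tomato had 10 members each (25.0%), against 37.8% and 33.5% of all genes. Almond and apple had 9 each (22.5%), against 46.4% and 32.5% of all genes. Olive had 7 (17.5%, against 34.0%) and orange had 5 (12.5%, against 34.4%). Spinach and walnut had 3 members each (7.50%), against 22.5% and 23.4% of all genes. Of the 26 detected members, 13 reached 3 counts in 1 food only, which held for 43 of the 151 genes detected in the whole table. MIR827 reached 3 counts in 6 foods, the most of any member.

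The 4 families differed in which food held the largest share of miRNA counts. Orange led for miR827 with 2.01% (95% CI 1.90 to 2.11), olive for miR395 with 0.314% (0.273 to 0.359), and pear for miR399 with 0.297% (0.266 to 0.331) and for miR2111 with 0.0193% (0.0119 to 0.0294). All 4 families together held 2.09% in orange and 0.504% in olive. They held 0.383% in pear, 0.347% in almond, 0.231% in apple and 0.205% in tomato. The lowest values were 0.0586% in walnut (0.0372 to 0.0879) and 0.0528% in spinach (0.0354 to 0.0758), whose intervals overlap. In deposited normalized reads the order was different, with 189.0 in almond, 139.4 in orange and 46.6 in olive, and with apple (2.03) below both tomato (4.29) and walnut.

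**Figure D1:**
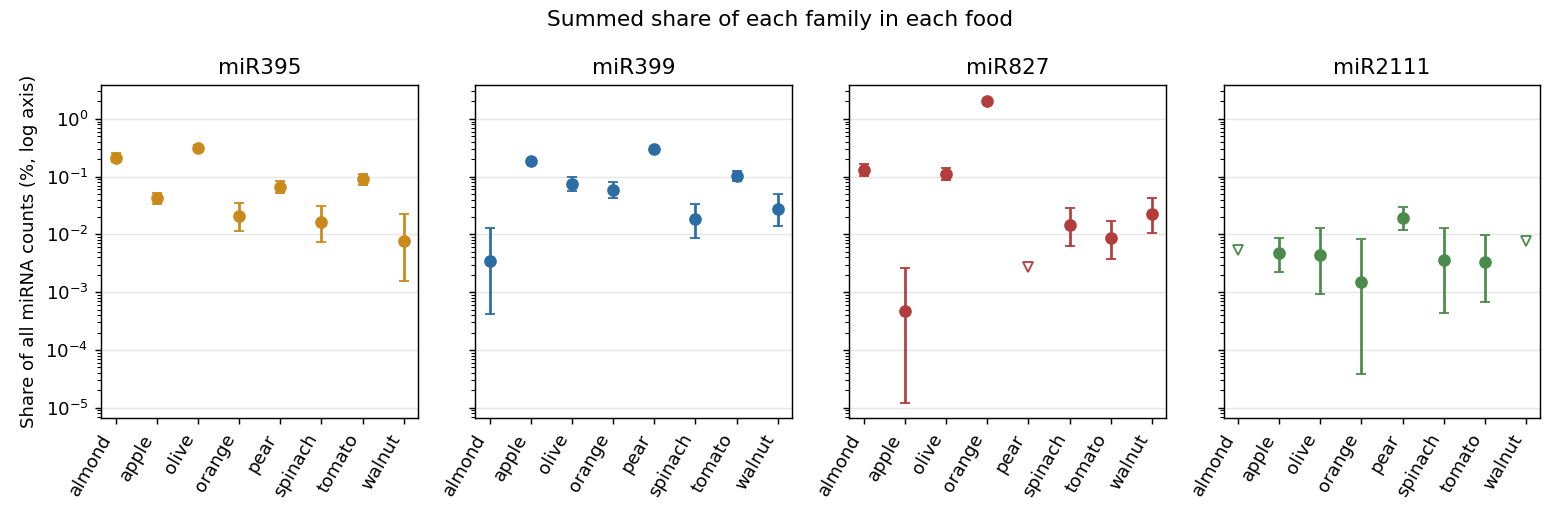
Summed share of each family among all miRNA counts of a food, in percent on a log axis, with 1 library per food; bars are exact 95% intervals for counting error, and an open triangle marks the limit that a count of 0 allows. The orange point of miR827, at 2.01%, lies above every other point.

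Comparing the families within a library needs no scaling between libraries, and it separated the foods by the family that dominated. In orange, miR827 made up 96.1% of the 1399 counts of the 4 families (94.9 to 97.0). In apple and pear, miR399 made up 79.6% of 490 counts (75.7 to 83.1) and 77.7% of 417 counts (73.4 to 81.6), with overlapping intervals. In olive and almond, miR395 made up 62.2% of 341 counts (56.8 to 67.3) and 61.6% of 198 counts (54.5 to 68.4). The second family differed between these foods, as almond had 37.4% miR827 and 1.01% miR399, while olive had 22% miR827 and 15% miR399. In tomato, miR399 held 93 of 186 counts (42.6 to 57.4%) and miR395 held 44.1% (36.8 to 51.5%), and the intervals overlap. Spinach, with 29 counts of the 4 families, and walnut, with 23, had too few to order their leading families.

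**Figure D2:**
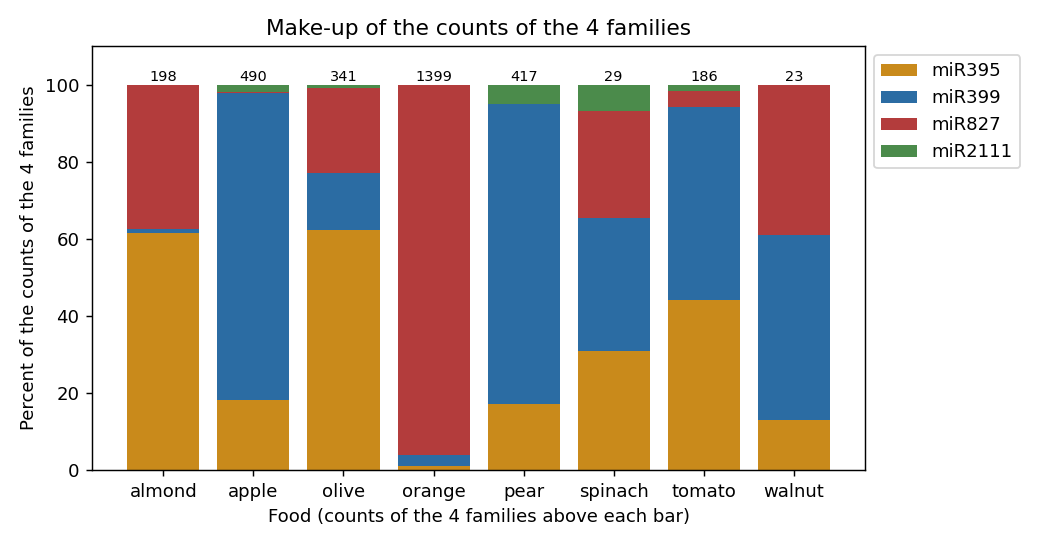
Percent of the counts of the 4 families that fell on each family, by food; the number above a bar is the count of the 4 families in that library. miR827 fills 96.1% of the orange bar, miR399 more than 77% of the apple and pear bars, and miR395 more than 61% of the almond and olive bars.

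The sulfate family miR395 is annotated as 15 genes in a stretch of 60458 bp on chromosome G1, from 27720832 to 27781289, with 5 genes on the + strand and 10 on the - strand. The nearest annotated miRNA gene of another family lies 425068 bp away. Counts of the family were 212 in olive, 122 in almond, 89 in apple, 82 in tomato and 72 in pear. Orange had 14, spinach 9 and walnut 3. The share in olive was 1.46 times that in almond (1.17 to 1.85), and both were above the shares of the other 6 foods, with intervals that do not overlap theirs. With the deposited factors the ratio turned to 0.249 (0.198 to 0.314), and almond led.

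Which miR395 copies were counted differed between foods. Almond reads fell on 13 of the 15 copies, of which 8 had at least 3 counts. The highest were 32 on MIR395l (ENSRNA049996100), 25 on MIR395a (ENSRNA049996107), 22 on MIR395b (ENSRNA049996165), 16 on MIR395d (ENSRNA049996122) and 10 on MIR395n (ENSRNA049996145). MIR395b was counted in almond and in no other food. In apple, 60 of the 89 counts (67.4%, 56.7 to 77.0) fell on MIR395m (ENSRNA049996069) and 28 on MIR395c (ENSRNA049996130). In pear, 54 of the 72 counts (75.0%, 63.4 to 84.5) fell on MIR395f (ENSRNA049996180), the last copy of the stretch. MIR395m had no count in pear and MIR395f none in apple, so the peach copies that led the counts of these related fruits differed. How reads were placed among near-identical copies is not known. Spinach had its 9 counts on MIR395l alone, and 14 counts in orange were divided over 5 copies with at most 5 on one.

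In olive and tomato, the counts of several miR395 copies were nearly equal. Olive had 59 counts on MIR395l (44.9 to 76.1), 53 on MIR395g (ENSRNA049996092; 39.7 to 69.3), 52 on MIR395n (38.8 to 68.2) and 47 on MIR395c (34.5 to 62.5). These 4 intervals overlap, and the only other olive count of the family was 1 on MIR395d. Tomato had 33 counts on MIR395c and 33 on its neighbor MIR395i (ENSRNA049996137), followed by 8 on MIR395d, 5 on MIR395f and 3 on MIR395o. Whether reads of 1 sequence were shared out among copies was not tested.

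The copies with near-equal counts lie in a pair of similar runs of 3 genes on the - strand. The run of MIR395e, MIR395g and MIR395l has gene lengths of 108, 118 and 103 bp. The run of MIR395c, MIR395i and MIR395n, which starts 24804 bp further along, has the same 3 lengths in the same order. The start of the middle gene lies 177 bp from that of the first gene in both runs, and that of the last gene lies 349 bp away in one and 369 bp in the other. The counts did not follow these matched positions in full. In olive the last genes of both runs were counted alike (59 and 52), but the middle gene was counted in the first run only (53 against 0) and the first gene in the second run only (0 against 47). In tomato only the second run was counted, on its first and middle genes. MIR395e, the counterpart of MIR395c by length, had 1 count in all 8 foods together.

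**Figure D3:**
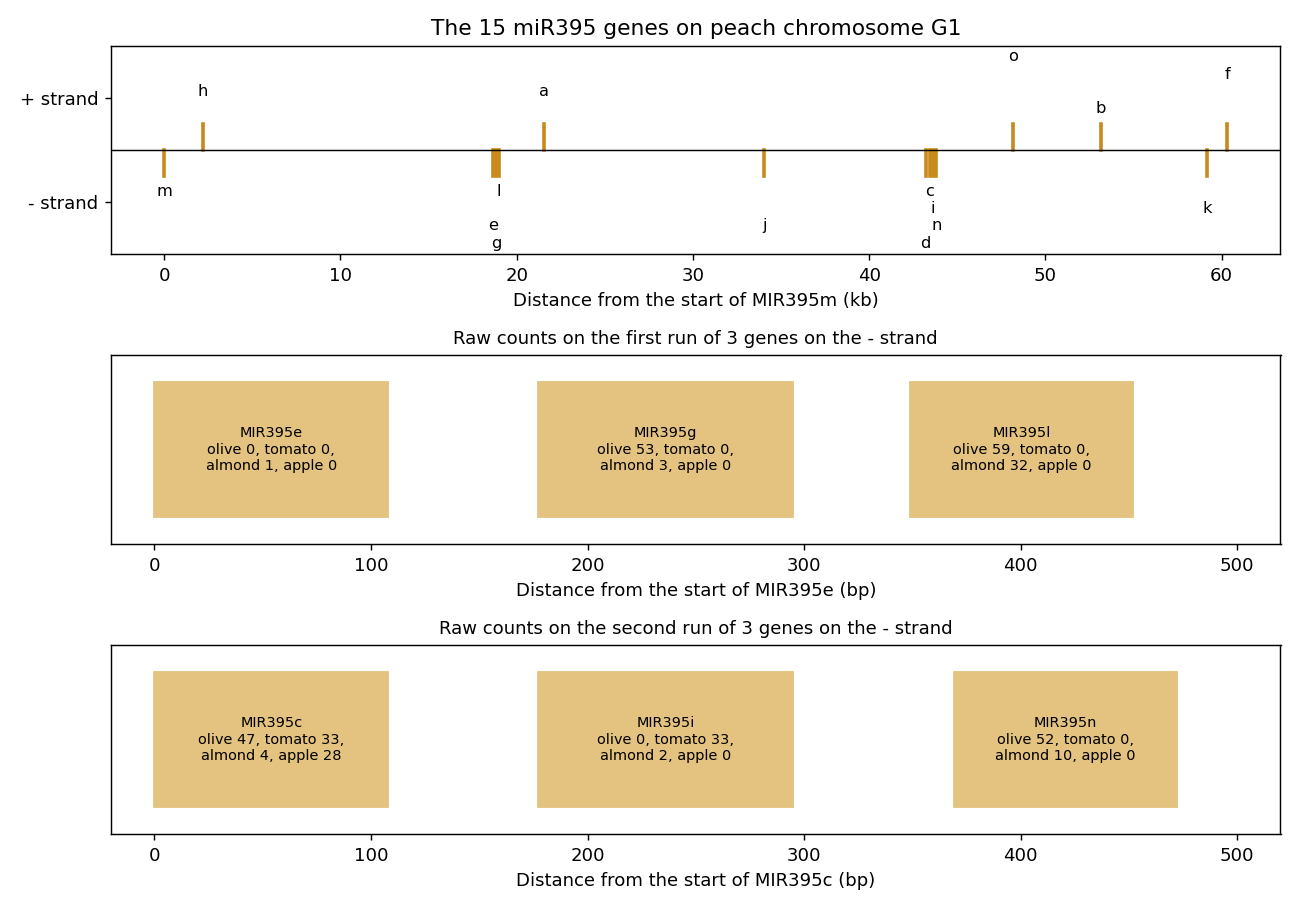
Positions of the 15 miR395 genes along 60458 bp of peach chromosome G1, as distance from the start of MIR395m, with strand shown up or down; the lower panels draw the matched runs of 3 genes to scale in bp, with the raw counts in 4 foods inside each box. Box lengths are 108, 118 and 103 bp in both runs, while olive counts fall on 2 boxes of each run.

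The phosphate family miR399 has 20 annotated genes on 5 chromosomes, but 2 of them took 93.6% of its 921 counts over the 8 foods. MIR399b (ENSRNA049996662) lies on G4 from 3186487 to 3186605 on the + strand, and MIR399a (ENSRNA049996862) lies on G5 from 9979104 to 9979212 on the - strand. MIR399b had 342 counts in apple, 213 in pear, 43 in olive, 21 in tomato, 3 in orange and 2 in almond, and none in spinach or walnut. MIR399a had 103 counts in pear, 66 in tomato, 37 in orange, 23 in apple, 8 in walnut and 1 in olive, and none in almond or spinach. MIR399b was the 19th highest of 97 counted genes in apple and the 22nd of 105 in pear, whereas MIR399a was the 21st of 106 in tomato.

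The balance of the counts placed on MIR399b and MIR399a within a library differed between foods beyond counting error. How reads that fit several copies of a family were placed is not known, so the split between these genes is uncertain. MIR399b held 97.7% of the counts of both genes in olive (88.0 to 99.9), 93.7% in apple (90.7 to 96.0) and 67.4% in pear (61.9 to 72.5). It held 24.1% in tomato (15.6 to 34.5) and 7.50% in orange (1.57 to 20.4). The intervals of apple, pear and tomato do not overlap, while those of olive and apple do, as do those of tomato and orange. Expressed as a ratio, MIR399b was 14.9 times MIR399a in apple (9.75 to 23.8), 2.07 times in pear (1.63 to 2.64) and 0.318 times in tomato (0.185 to 0.527).

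The miR399 share of almond, whose genus is that of peach, was the lowest of the 8 by its point value. Almond had 2 counts of the family, a share of 0.00351% (0.000425 to 0.0127), compared with 0.297% in pear and 0.184% in apple (0.166 to 0.203). Tomato had 0.103% (0.0828 to 0.126), olive 0.0754% (0.0562 to 0.0991) and orange 0.0597% (0.0426 to 0.0813), and the intervals of olive overlap those of both neighbors in this order. Walnut had 0.0280% (0.0140 to 0.0501) and spinach 0.0182%, with intervals that overlap. That of walnut also overlaps that of orange, and that of spinach also overlaps that of almond. In deposited normalized reads almond (1.91) was above apple (1.62) and spinach (0.465).

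The remaining 18 miR399 genes had few counts. Of the 11 that lie on G3, 8 had no count in any food and the highest count was 9, reached by MIR399n in apple and by the gene mir-399 with the identifier ENSRNA050003595 in spinach. The latter gene carried 9 of the 10 spinach counts of the family and had no count in the other foods. All 5 miR399 genes with a length of 131 bp (MIR399f, MIR399h, MIR399i, MIR399j and MIR399l, all on G3) had a count of 0 in every food. On G4, where 6 genes lie, the gene mir-399 with the identifier ENSRNA050004158 had 9 counts in apple, and that with the identifier ENSRNA050004138 had 5 in tomato. MIR399k, the only member of the family on G1, had 7 counts in olive and 3 in walnut.

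**Figure D4:**
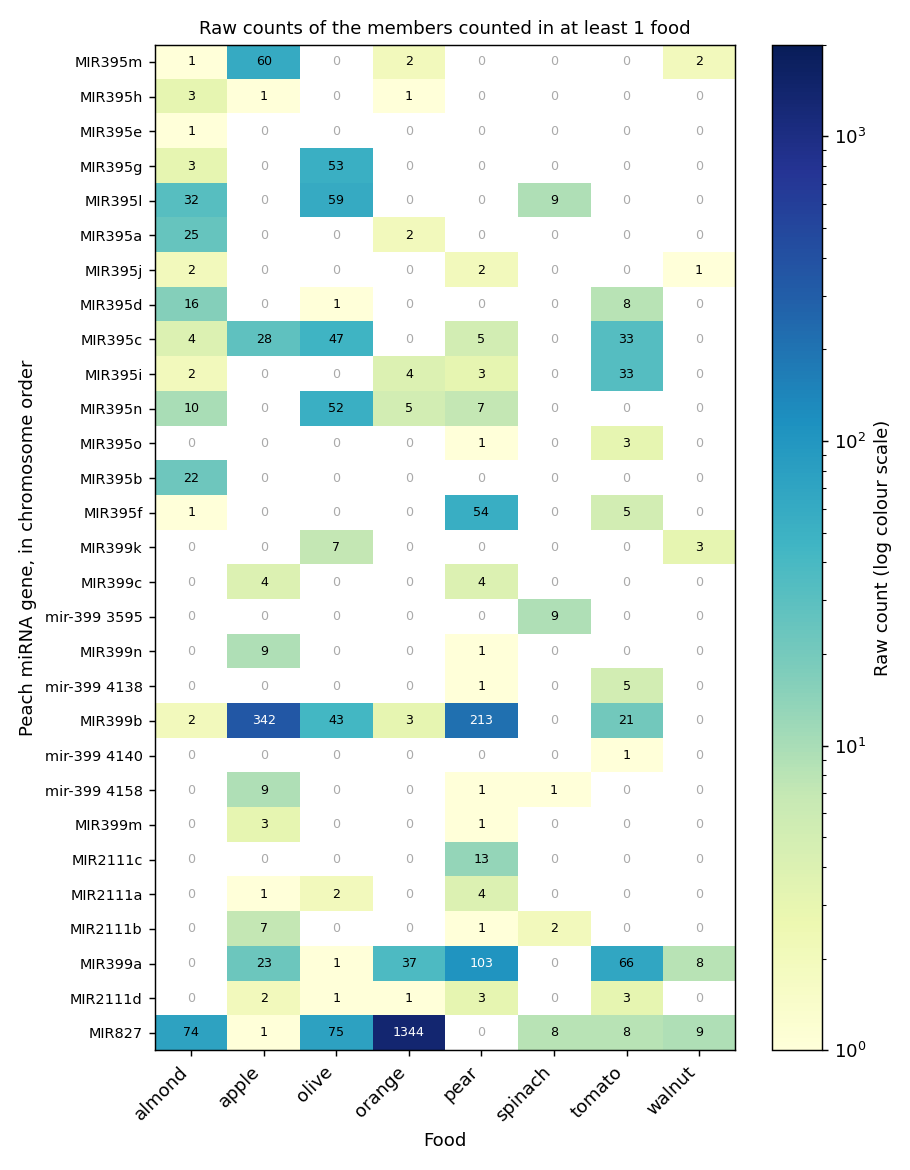
Raw counts of the 29 members with at least 1 count, in chromosome order, by food; colour is on a log scale, grey zeros are counts of 0, and genes named mir-399 carry the last 4 digits of their identifier. The miR395 counts move from copy to copy between foods, while miR399 counts gather on MIR399b and MIR399a.

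MIR827 (ENSRNA049997151) is the only gene of its family in the annotation and lies on G7 from 22179391 to 22179478 on the - strand, with no other miRNA gene within 476895 bp. Orange had 1344 counts (1273 to 1418), the highest count of any member in any food, and outside MIR827 the highest was 342. Olive had 75 counts (59.0 to 94.0) and almond 74 (58.1 to 92.9). Walnut had 9, spinach and tomato 8 each, apple 1 and pear none. In orange MIR827 was the 8th highest of 97 counted genes, against the 23rd of 102 in olive and the 40th of 123 in almond.

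As a share of all miRNA counts, MIR827 was 15.4 times as high in orange as in almond (12.2 to 19.8). The shares of almond, 0.130% (0.102 to 0.163), and olive, 0.111% (0.0873 to 0.139), had overlapping intervals. In deposited normalized reads MIR827 was at 134.0 in orange, 70.6 in almond and 10.25 in olive. The fruits with the highest miR399 shares were those with the lowest MIR827 shares. The single count in apple is a share of 0.000472%. For pear, 0 of 108997 counts allows, at 3 counts, a share of up to 0.00275%. In deposited normalized reads, however, apple (1.62) was below olive (6.97) and orange (3.99) for miR399. The 8 or 9 counts in spinach, tomato and walnut were each between 0.595% and 0.670% of the orange count, and carry-over of reads between libraries was not tested.

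miR2111 was the least counted family, with 40 counts over the 8 foods. Its genes MIR2111c, MIR2111a and MIR2111b lie within 2229 bp of G4, from 5127105 to 5129333, and MIR2111d lies on G6 from 25321069 to 25321161 on the - strand. Pear had 21 counts, of which 13 were on MIR2111c (ENSRNA049996678, 5127105 to 5127182 on the - strand), 4 on MIR2111a, 3 on MIR2111d and 1 on MIR2111b. Apple had 10 counts, of which 7 were on MIR2111b, 2 on MIR2111d and 1 on MIR2111a. MIR2111c, the leading copy in pear, was not counted in apple or in any other food. Olive and tomato had 3 counts of the family, spinach 2 and orange 1. Almond and walnut had none, which at 3 counts allows a share of up to 0.00526% in almond and 0.00764% in walnut. The share in pear was 4.08 times that in apple (1.84 to 9.72), and the interval of pear overlaps those of olive and spinach, whereas those of the other 5 foods lie below it.

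A larger share of the members than of the other annotated miRNA genes had a neighbor nearby in peach. Within 10 kb of any annotated miRNA gene lay 30 of the 40 members (75.0%) and 38 of the 169 other genes (22.5%), without a test, since copies of a family are not independent. Without the 15 miR395 genes, which lie in 1 stretch of G1, it was 15 of 25 members. At 2 kb the numbers were 15 of 40 members and 17 of 169 other genes. Another member lay within 10 kb of 29 members, in 8 groups of 2 to 9 genes, and these were all 15 miR395 genes, 11 of the 20 miR399 genes and 3 of the 4 miR2111 genes. Neither MIR827 nor MIR399a, which were among the most counted members, lay in such a group, while MIR399b lay in a group of 5 miR399 genes within 13369 bp.

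The copper families, which repress copper proteins such as laccases and superoxide dismutases, were the most alike in function and served for comparison. The table held 4 genes of them, 1 of miR397 and 3 of miR398. Their share was 5.13% in orange (4.96 to 5.30), 3.47% in walnut (3.29 to 3.66) and 3.06% in pear (2.96 to 3.16), and 0.802% or less in the other foods. In olive, with only 8 copper counts, the sulfate and phosphate families held 97.7% of the counts of both groups (95.5 to 99.0). They held 71.8% in apple (68.3 to 75.2) and 65.3% in tomato (59.4 to 70.8). They held 30.2% in almond (26.7 to 33.9) and 28.9% in orange (27.7 to 30.2). In pear they held 11.1%, in spinach 10.4% and in walnut 1.66% (1.05 to 2.48). These percentages need no scaling between libraries, whereas the order of the copper shares does, and in deposited normalized reads almond (436.2) led for copper, followed by walnut (355.5) and orange (342.6).

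The number of detected members was compared between the 3 foods of the peach family, the Rosaceae (almond, apple and pear), and the 5 others. Each library was first drawn down, by expectation, to the 39249 counts of walnut. The expected number of members with at least 3 counts was then 7.28 in almond, 5.01 in pear and 4.34 in apple. It was 6.88 in olive, 6.41 in tomato, 3.31 in orange, 3 in walnut and 2.99 in spinach, so that the groups overlap. The Rosaceae mean exceeded that of the others by 1.02 members (5.54 against 4.52). This difference did not pass an exact two-sided permutation test (p = 0.5), and 56 splits allow only coarse values of p. Without almond the difference was 0.155. Over all 209 genes the same expectation was 63.7 in the Rosaceae and 54.1 in the others, a ratio of 1.18 against 1.23 for the members. The foods of a plant family are different species and not replicates, so p only places this difference of means among the 56 splits of these 8 libraries.

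The order of foods within a family depended on how libraries were scaled. For miR827 the orange library led under all 5 scalings tried, although its ratio to almond ran from 1.90 with the deposited factors to 37.7 with TMM. Olive, not almond, was second with TMM and DESeq2 poscounts factors, so the ratio to almond there exceeds the lead of orange over the second food. For miR2111 pear led under all 5, with a ratio to apple between 1.97 and 17.2. The lowest of these, with DESeq2 poscounts factors, had an interval of 0.889 to 4.69 that includes 1. Olive was second with TMM and with the deposited factors, where pear had 0.715 normalized reads and olive 0.410. For miR395, olive led under 4 of the 5 scalings, whereas in deposited normalized reads the olive value was 0.249 times that of almond (0.198 to 0.314). For miR399, pear had a higher value than apple under 4 of the 5, although with TMM the ratio of 1.13 had an interval that includes 1 (0.976 to 1.32). With DESeq2 poscounts factors pear was at 0.780 times apple (0.671 to 0.906). With the deposited factors olive was second for miR399, at 6.97 normalized reads against 11.0 in pear and 1.62 in apple.

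**Figure D5:**
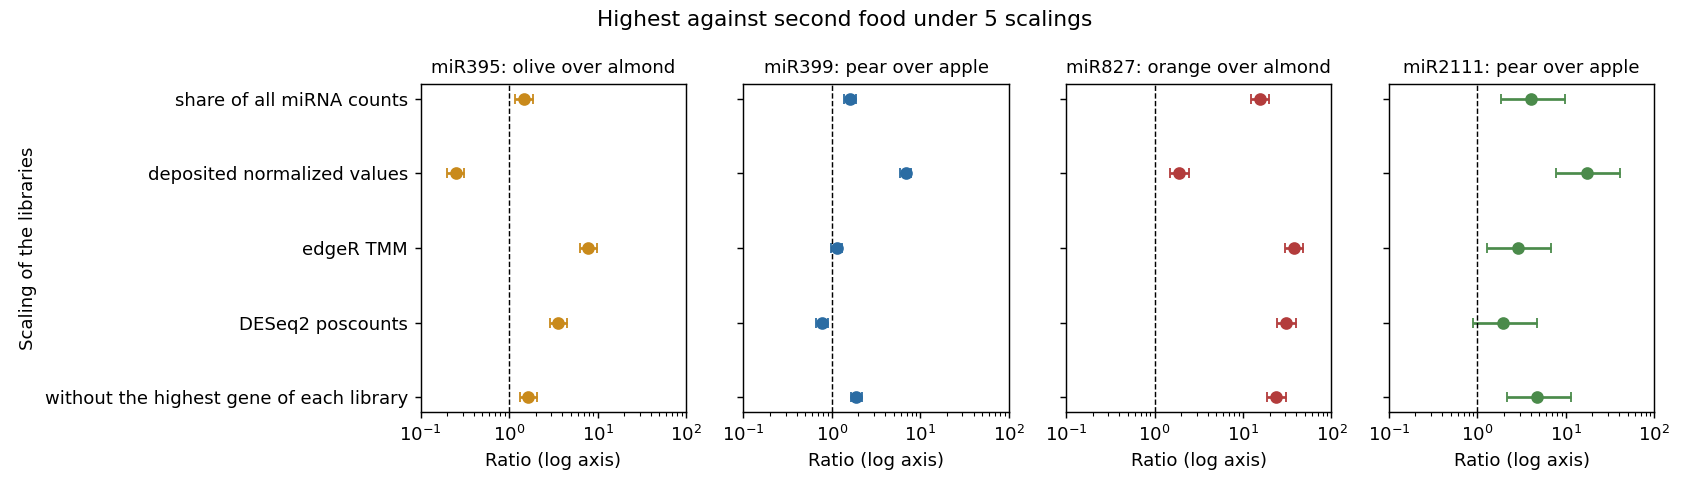
Ratio between a fixed pair of foods for each family, under 5 scalings of the libraries, on a log axis. The pair is the food with the highest share over that with the second highest, and other foods were second under some scalings. Bars are exact 95% conditional binomial intervals for counting error and the dashed line marks a ratio of 1. The miR827 and miR2111 points lie above 1 throughout, whereas 1 point each of miR395 (0.249) and miR399 (0.780) lies below it.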

How the data were processed

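Total RNA of 8 foods was sequenced as small RNA libraries (1 library per food). The authors removed adapters with skewer, used ShortStack to align reads of 15 to 30 bases to peach (Prunus persica, genome NCBIv2, miRBase 22) and counted them per miRNA gene and strand with HTSeq. Raw values are whole counts per gene as deposited by the authors. The deposited normalized table holds a signal, the same counts divided by 1 DESeq2 factor per library. The versions of these tools are not stated in the sources. No column of another sample was present (0 columns).

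Shares were computed over all miRNA counts of a library (39249 to 212021). A member was called detected with at least 3 counts, with 1 and 10 as alternatives. Groups of genes were formed at 10 kb, with 2 and 50 kb as alternatives. Named were all 14 members with at least 10 counts in a food, and the leading copy of a family where a food held 10 counts of it; MIR395e, MIR395k, MIR395o and the low miR399 and miR2111 genes were added after their values were seen. Members and lists were chosen with earlier results of these data known. Scaling alternatives were the deposited factors, edgeR TMM, DESeq2 poscounts and shares without the highest gene of each library. Calculations were tested on simulated data. No peach sequence was used, and 0 member identifiers matched the almond gene table. Software: R 4.3.3, edgeR 4.0.16, DESeq2 1.42.0, scipy 1.17.1, pandas 2.3.3, numpy 2.4.6, matplotlib 3.10.9 and Python 3.11.15.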

Additional observations from a re-analysis of the deposited data

How the results depend on the processing

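The ratios of the leading foods were recomputed under other scalings between libraries. Each family kept the pair of foods with the highest shares, although olive or tomato was second under some of these scalings. With the deposited factors the ratio of olive to almond for miR395 turned from 1.46 to 0.249, that of pear to apple was 6.82 for miR399 and 17.2 for miR2111, and that of orange to almond for miR827 was 1.90. With edgeR TMM these ratios were 7.86 for miR395, 1.13 for miR399 and 37.7 for miR827. With DESeq2 poscounts they were 3.61 for miR395 and 30.9 for miR827, and that for miR399 turned to 0.780. Without the highest gene of each library they were 1.89 for miR399 and 23.7 for miR827. The cause was not tested. The number of members detected in at least 1 food was 26 at a minimum of 3 counts, 29 at 1 count, 14 at 10 counts and 16 with libraries drawn down to 39249 counts. Leaving out each food in turn, chosen after seeing the data, gave 21 to 26. With distances of 2 and 50 kb, 15 and 33 members lay in groups; within 50 kb of any annotated miRNA gene, chosen after seeing the data, lay 35 of 40 members and 47 of 169 other genes. The difference between Rosaceae and other foods stayed positive and did not pass the test in the 11 alternatives tried, among them the omission of each food (0.155 to 1.63 members, exact permutation p from 0.343 to 0.952). It was 3.89 members at a minimum of 1 count (exact p = 0.107), 0.912 at 10 counts (exact p = 0.607) and 3.73 without drawing down (exact p = 0.143). The foods of a plant family are not replicates, so each p only places a difference of means among splits of these libraries. Of 48 family and group shares, 22 stayed within their counting interval without the highest gene of the library, and 21 of 40 did when genes under 10 counts were left out. No paired analysis was possible because each food has 1 library.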
